A study of Mus musculus with 2 samples.

Results

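Complex I of the respiratory chain was described through its nuclear-encoded genes in mouse skeletal muscle. The genes were all those whose symbol starts with Nduf and whose annotated type is protein-coding. This rule used names and annotated type, not measured values, though it was set with earlier results of these data known. It gave 46 of the 15324 annotated genes with reads: 36 structural subunits, 8 assembly factors named Ndufaf, and the pair Ndufa4 and Ndufa4l2. All 46 had reads in both libraries, and all 46 passed the minimum of 10 reads summed over both libraries that was set for testing.

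Total RNA came from the gastrocnemius muscle of the calf in 36-day-old female mice of the strain B6CASTF1/J, the first-generation cross of C57BL/6J with CAST/EiJ. It was read as long molecules in 2 libraries, each started from 2 µg of RNA with Lexogen and Ambion mix 1 spike-in RNAs added. The labels number the libraries as biological replicates 1 and 2. They also give them different female numbers under a shared donor entry, and do not settle whether they are separate animals. An SD with n = 2 is therefore the spread between 2 libraries of the group. Both libraries belong to 1 group, so no condition could be compared, and a difference between them is a difference between these samples, which may be technical in part.

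Complex I takes electrons from NADH and hands them to ubiquinone, and it pumps protons across the inner mitochondrial membrane as it does so. Its peripheral arm holds the N module, where NADH is oxidised, and the Q module, where quinone is reduced. Its membrane arm holds the proton pumps, which are encoded in mitochondrial DNA, with many small supernumerary subunits around them. Assembly factors join the modules and leave the finished enzyme. Oxidative muscle fibres are rich in mitochondria and so in complex I, and fast glycolytic fibres hold less of it.

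Replicate 1 gave 797105 reads in annotated genes and replicate 2 gave 1602272. Levels are given in CPM, the usual scaling of reads to library size, in which a single read of replicate 1 equals 1.25 CPM and a single read of replicate 2 equals 0.624 CPM. A long read was counted as 1 transcript whatever its length, and on that basis CPM was also used between genes. Whether transcripts of different length were read equally well was not tested. Ratios between the libraries moved with length among all genes, as given below. The fibre markers Ckm, Acta1, Mylpf, Tnnt3 and Atp2a1 took 30.04% and 18.2% of the reads, and Ckm, Acta1 and Mylpf were abundant in both libraries. The cardiac markers Myh6 and Tnni3 had 0 reads in replicate 1 and 1 read each in replicate 2. The libraries stood apart in fibre type. The 8 slow fibre markers summed to 28.9 CPM in replicate 1 and 9415 CPM in replicate 2, and 4 of the 8 (Myh7, Myl2, Myl3 and Myoz2) were at 0 in replicate 1. Myh2, the myosin of fast oxidative fibres, had 0 CPM and 346 CPM. Markers of blood summed to 2543 and 550 CPM and those of adipocytes to 462 and 78.6 CPM, lower in replicate 2. Those of fibroblasts summed to 837 and 518 CPM (1 of 4, Col3a1, called lower), and those of Schwann cells to 207 and 78.0 CPM (1 of 2 tested, Mbp, called lower). The 3 endothelial markers summed to 52.7 and 41.2 CPM, with none called. The part of these differences in the results below was not tested.

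The 46 genes together held 2.97% ± 1.37 (SD, n = 2) of the reads, with 2.00% in replicate 1 (15936 reads) and 3.94% in replicate 2 (63055 reads). The structural subunits alone took 1.71% and 3.29%. By place in the enzyme, following the usual assignment of subunits to modules, the 10 N module genes took 0.441% and 0.754%, and the 6 Q module genes took 0.294% and 0.617%. The 9 genes of the proximal membrane arm took 0.422% and 0.747%, and the 10 genes of the distal membrane arm took 0.510% and 1.08%. The 8 assembly factors took 0.0270% and 0.0577%. In each of these groups the share was larger in replicate 2, from 1.71-fold in the N module to 2.14-fold in the assembly factors. In RNA of a whole muscle, fewer cells of a type and less RNA per cell cannot be told apart.

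Each of the 46 genes had a higher CPM in replicate 2 than in replicate 1. With Fisher's exact test of a gene's reads against all other reads, Benjamini-Hochberg adjustment over the 8096 genes tested and a minimum of 2-fold, 16 of 46 were higher in replicate 2 and 0 were lower, against 5.78% of all genes tested that were higher. The median ratio was 1.90 over the 46 genes and 1.04 over all genes tested, where the middle range from the lower to the upper quartile ran from 0.696 to 1.54. Most of the 46 lay just under or just over the 2-fold line, so that the count turns on it. With a minimum of 1.5-fold, 40 of 46 were higher, against 10.2% of all genes tested. Of the 36 structural subunits, 31 had ratios between 1.4 and 2.4. The ratios thus lay close together around the median of the group. Atp2a1 alone took 110003 and 30171 CPM. With Atp2a1 left out of the totals the log2 ratio of the median gene fell by 0.12 and 7 of the 46 genes remained past the 2-fold line. A change of total scales all ratios alike. The median ratio of the 46 genes relative to that of all genes, 1.83, was therefore bound to stay the same.

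**Figure D1:**
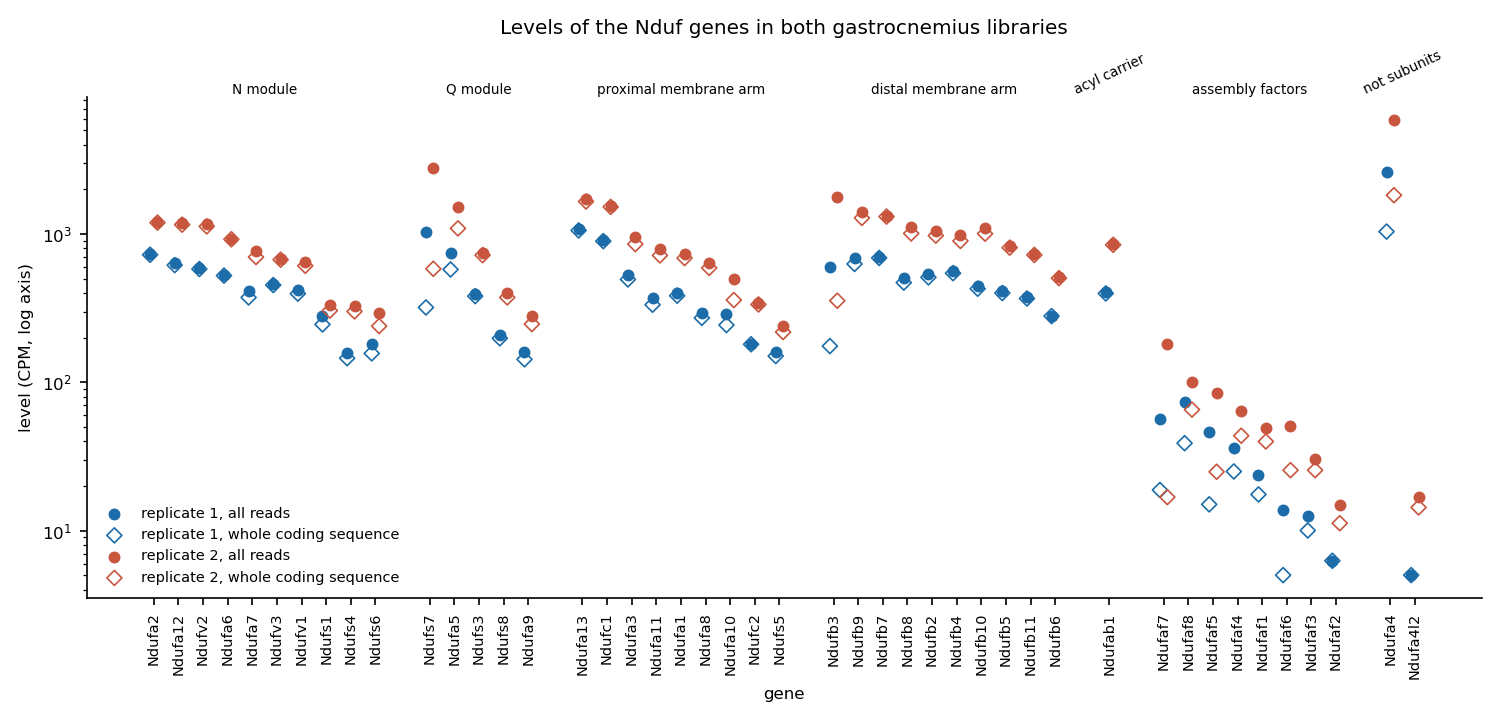
Level of 45 of the 46 genes in CPM (log axis) in replicate 1 (blue) and replicate 2 (red), by module, from all reads (filled circles) and from models with a whole coding sequence (open diamonds). By all reads the structural subunits lie between 158 and 2796 CPM and the assembly factors between 6.27 and 181 CPM, and the circle of replicate 2 is the higher one for every gene shown.

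**Figure D2:**
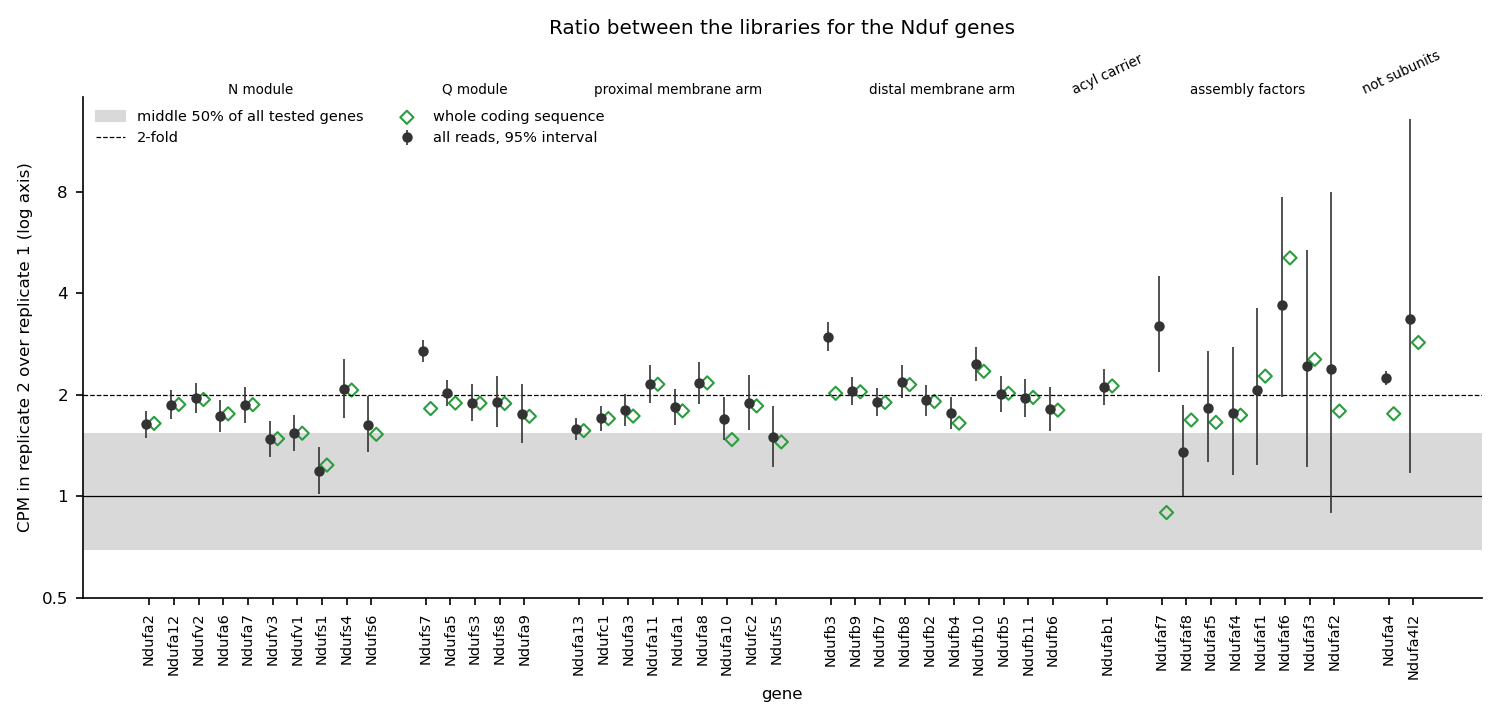
Ratio of CPM in replicate 2 to replicate 1 (log axis) for the same 45 genes, from all reads (black circles, with bars for the exact 95% interval of counting error) and from whole coding sequences (green diamonds). The grey band is the range from the lower to the upper quartile of all tested genes (0.696 to 1.54), and the dashed line is 2-fold. The circles of Ndufs1, Ndufaf8, Ndufv3 and Ndufs5 lie inside the band, and the diamonds of Ndufs7, Ndufb3, Ndufaf7 and Ndufa4 lie well under their circles.

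The 7 core subunits made in the nucleus, which between them hold the flavin and the iron-sulphur clusters, spanned a wide range. Ndufv1 and Ndufv2 form the NADH dehydrogenase unit at the tip of the peripheral arm. Ndufv1, which binds NADH and the flavin, had 420 CPM in replicate 1 and 648 CPM in replicate 2. Ndufv2, which carries an iron-sulphur cluster beside it, had 595 and 1166 CPM. Ndufs1, the largest core subunit and the holder of several clusters, had 280 and 333 CPM, a ratio of 1.19 (95% CI 1.02 to 1.399) that did not pass the test (Fisher's exact test, Benjamini-Hochberg adjusted p = 0.109).

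In the Q module, Ndufs3, a core subunit without a cluster, had 394 and 747 CPM, and Ndufs8, which carries a pair of clusters on the way to the quinone, had 210 and 399.4 CPM. Ndufs7, which carries the last cluster before the quinone, stood above all other structural subunits in mean level, with 1034 and 2796 CPM in the libraries (1915 ± 1246, SD, n = 2). It was the only core subunit of the 7 past the 2-fold line, at 2.70-fold (95% CI 2.51 to 2.92; Fisher's exact test, Benjamini-Hochberg adjusted p = 4.14e-185). Its excess over the other core subunits lay in incomplete transcript models, described below, and without them its levels were 320 and 583 CPM.

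Among the supernumerary subunits of the peripheral arm, Ndufa5 of the Q module was one of the highest, with 748 and 1516 CPM, and it was higher in replicate 2 (2.03-fold). Ndufs4, an N module subunit needed for the stability of that module, was low at 158 and 329 CPM and was higher in replicate 2 (2.08-fold). Ndufs6, a small zinc-binding N module subunit, had 181 and 295 CPM. Ndufa9, which sits at the joint of the arms, had 161 and 282 CPM. Ndufs6 and Ndufa9 were among the 5 lowest structural subunits in mean level. Of the N module genes 1 of 10 was called, and of the Q module genes 2 of 6, against 5.78% of all genes tested. With 10 or fewer genes a module, such counts are coarse. The calls of Ndufs4 and Ndufa5 were lost with Atp2a1 left out of the totals.

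In the proximal membrane arm, Ndufa13, also known as Grim19, had 1086 and 1719 CPM and Ndufc1 had 908 and 1548 CPM. Both were among the 5 highest structural subunits, and neither passed the 2-fold line (ratios 1.58 and 1.70). At the other end were Ndufs5, with 159 and 239 CPM, and Ndufc2, with 181 and 343 CPM. Called here were 2 of 9 genes, against 5.78% of all genes tested, and 0 of 9 with Atp2a1 left out of the totals. Ndufa8 had 292 and 633 CPM (2.17-fold), and Ndufa11 had 371 and 798 CPM (2.15-fold). Ndufa8 and Ndufs5 are proteins of the intermembrane space face with paired cysteines, and Ndufa11 spans the membrane beside the proton pumps.

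Among the structural modules the distal membrane arm, built around the outer proton pumps, had the most genes called, 5 of 10, against 5.78% of all genes tested. With Atp2a1 left out of the totals, Ndufb5 and Ndufb9 were not called. All 5 are small accessory subunits of that arm. Ndufb3 had 596 and 1772 CPM (2.97-fold), the highest ratio of any structural subunit by all reads. Most of its reads lay in a last-exon model: on whole coding sequences it had 176 and 355 CPM (2.02-fold), and its call was lost with known models only. Ndufb10 had 445 and 1100 CPM (2.47-fold), Ndufb8 had 507 and 1110 CPM (2.19-fold), Ndufb9 had 685 and 1407 CPM (2.05-fold) and Ndufb5 had 411 and 826 CPM (2.01-fold). Ndufab1, the mitochondrial acyl carrier protein, is present at a site in each arm and also serves mitochondrial fatty acid synthesis. It had 406 and 859 CPM (2.11-fold) and was called, but not with Atp2a1 left out of the totals. Whether the modules differed from each other in ratio was not tested.

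Although the enzyme holds 1 copy of each subunit except Ndufab1, the transcripts were not at 1 level. From the lowest to the highest of the 36 structural subunits the level differed by 6.87 times in replicate 1 and by 11.7 times in replicate 2. The SD of log2 CPM over the subunits was 0.75 and 0.86. Around the medians of 416 and 812 CPM, 28 and 26 of the 36 subunits lay within 2-fold. The order was shared by the libraries, with Pearson r = 0.95 and Spearman rho = 0.95 of log2 CPM over the 36 subunits. That is a description across genes of the same 2 libraries, and genes are not independent replicates. Subunits of complex III (0.76 and 0.92 over 9 genes) and complex IV (0.75 and 0.73 over 11 genes) had SDs of log2 CPM of about the same size. Those of complex V were wider, at 2.51 and 2.72 over 16 genes, with the lowest gene at 1.25 CPM in each library. Of these 16 genes, 12 lay within 2-fold of their median in each library.

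Assembly factors were read far more rarely than the subunits they assemble, with medians of 30.1 and 57.7 CPM. The median structural subunit was 13.8 and 14.1 times higher. Each factor had only 5 to 59 reads in replicate 1, so their ratios are imprecise. Ndufaf1, which acts with Ecsit on the early membrane arm, had 23.8 and 49.3 CPM and was called (2.07-fold, 95% CI 1.24 to 3.62; Fisher's exact test, Benjamini-Hochberg adjusted p = 0.0216). Ndufaf3, a factor of the Q module, had 12.5 and 30.6 CPM and was called (2.44-fold, 95% CI 1.22 to 5.40). Its partner Ndufaf4 had 36.4 and 64.3 CPM. Ndufaf5, which modifies an arginine of Ndufs7, had 46.4 and 84.9 CPM.

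Ndufaf6, which acts early in assembly, had 13.8 and 51.2 CPM and was called, with the highest ratio of the 46 genes (3.71-fold, 95% CI 1.97 to 7.72; Fisher's exact test, Benjamini-Hochberg adjusted p = 3.78e-05). Ndufaf7, an arginine methyltransferase that acts early in assembly, had 56.5 and 181 CPM and was called (3.21-fold, 95% CI 2.34 to 4.49), but most of these reads lay in 1 incomplete model. Ndufaf8, which stabilises Ndufaf5, had 74.0 and 100.5 CPM. Ndufaf2, which acts late in assembly, had 6.27 and 14.98 CPM from 5 and 24 reads. Ndufaf2 and Ndufaf8 did not pass the test (Fisher's exact test, Benjamini-Hochberg adjusted p = 0.223 and 0.153), and at this depth a 2-fold difference of Ndufaf2 was within its interval of 0.893 to 8.01. Of the 8 factors, 4 were called, against 5.78% of all genes tested. Ndufaf1 and Ndufaf3 were not called with Atp2a1 left out of the totals, and Ndufaf3 was not called with no filter on low counts.

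Ndufa4 was named as a complex I subunit and later placed in complex IV, and by all reads it exceeded every complex I subunit. Its levels were 2633 and 5893 CPM, and it made up 13.2% and 14.97% of the reads of all 46 genes. It was higher in replicate 2 (2.24-fold, 95% CI 2.13 to 2.35). On whole coding sequences it had 1039 and 1827 CPM, below the 1058 CPM of Ndufa13 in replicate 1, and was not called (1.76-fold). Its relative Ndufa4l2, known as a target of hypoxia signalling, had only 4 and 27 reads, 5.02 and 16.9 CPM. That difference did not pass the test (3.36-fold, 95% CI 1.17 to 13.2; Fisher's exact test, Benjamini-Hochberg adjusted p = 0.0849).

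Short transcripts tended to have higher ratios in replicate 2 among all genes, and most of the 46 are short. Of the tested genes whose leading annotated transcript was up to 500 nt long, 15.8% of 221 were higher, and 0 of the 3 complex I genes. From 501 to 1000 nt it was 12.9% of 770 genes, against 9 of 24. From 1001 to 2000 nt it was 7.94% of 2002 genes, against 7 of 15, and from 2001 to 4000 nt 2.95% of 3012 genes, against 0 of 3. From 501 to 1000 nt the median log2 ratio was 0.56 over all genes and 0.95 over the complex I genes, and from 1001 to 2000 nt it was 0.30 and 0.97. The part of length in the ratios was not tested further. Ndufa13 has no annotated transcript read as Known and entered no bin. Among the structural subunits the log2 ratio followed length weakly or not at all (r = -0.27, rho = -0.01, 35 genes), given as a description.

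Genes outside the Nduf names were looked at for the same enzyme and pathway. The 7 subunits encoded in mitochondrial DNA took 0.0690% and 0.188% of the reads. Of the 6 tested, 4 were higher in replicate 2, against 5.78% of all genes tested. mt-Nd1, which forms the quinone tunnel in the membrane, had 272 and 696 CPM, and mt-Nd4, a proton pump, had 154 and 459 CPM. These levels lay under those of many nuclear subunits, and mt-Nd4l (1.25 and 8.74 CPM) and mt-Nd6 (1.25 and 3.12 CPM) were near the level of 1 to a few reads. Whether mitochondrial transcripts were captured, and their reads assigned to genes, as fully as nuclear ones was not tested. A low count here therefore does not show low expression.

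In a list of 22 other genes of complex I assembly and iron-sulphur cluster supply, 3 of 21 tested were higher and 0 were lower, against 5.78% higher among all genes tested. These were Iscu, the cluster scaffold (138 and 321 CPM, 2.33-fold), Ecsit, the partner of Ndufaf1 (105 and 217 CPM, 2.06-fold), and Chchd4, the import receptor for proteins with paired cysteines (56.5 and 115 CPM, 2.03-fold). The highest of this list were Bola3, a late cluster transfer protein, with 262 and 494 CPM, and Tmem70, a membrane protein of complex I and ATP synthase assembly, with 169 and 301 CPM, followed by Iscu. The median ratio of this list was 1.29. The 40 nuclear subunits of complexes II to V took 3.60% and 7.18% of the reads, and 14 of 39 tested were higher, against the same 5.78%, with a median ratio of 1.93. That is close to the 1.90 of the Nduf genes, and a difference between the complexes was not tested.

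Most reads of complex I genes belonged to annotated transcripts. TALON, which assigned the reads to models, calls a model Known where its introns match an annotated transcript. It calls a model an incomplete splice match where it holds only a consecutive part of such a chain, and Genomic where it overlaps a gene outside its splice sites. Known models held 75.9% and 70.3% of the reads of the 46 genes, against 66.6% and 67.6% over all annotated genes. Incomplete matches held 21.98% and 27.7%, against 10.7% and 15.8%. Models with unannotated combinations or sites of splicing held 0.571% and 0.599% (NIC) and 1.12% and 0.928% (NNC). With Ndufa4 left out of the 46, Known models held 81.4% and 77.3% of the reads and incomplete matches 16.1% and 20.5%.

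A model was counted as whole where it spanned every coding base of an annotated transcript, including a short coding form. In Ndufa6, 21 and 136 of the reads so counted held only the 41 codons of Ndufa6-207, against 131 codons in Ndufa6-201. In all 46 genes the main coding form held over 90% of the whole reads, as the mean of both libraries. Known models carry the annotated ends, so coding bases in a first or last exon were not seen directly. Models counted as whole held 88.2% and 82.9% of the reads of the structural subunits, against 69.9% and 69.4% for all protein-coding genes. In 27 of the 36 structural subunits the mean share was at least 90%, and in 34 of 36 it was at least 70%. The remaining 2 were Ndufb3 and Ndufs7. The comparison with other genes depends on length. For coding sequences of up to 600 nt, the median share per gene was 94.5% and 91.5% over 29 complex I genes and 91.7% and 89.8% over 695 other genes. From 601 to 1200 nt it was 89.1% and 87.6% over 7 complex I genes, against 85.2% and 79.4% over 1061 others. Over 1200 nt it was 87.9% and 91.4% over 5, against 72% and 57.1% over 1289.

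**Figure D3:**
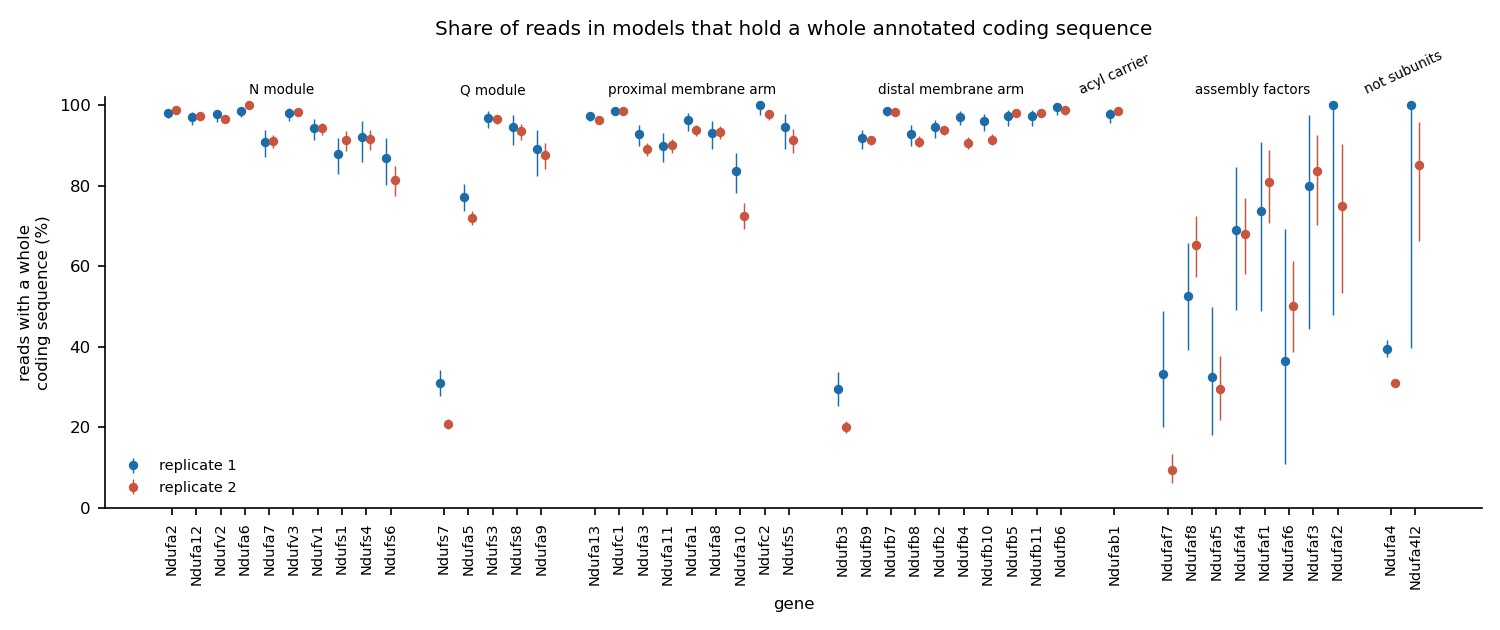
Share of reads (percent) in models that hold a whole coding sequence, for 45 of the 46 genes in replicate 1 (blue) and replicate 2 (red), with bars for the exact 95% interval of counting error. Most structural subunits lie above 90%, and Ndufs7, Ndufb3, Ndufa4, Ndufaf5 and Ndufaf7 lie under 40% in both libraries.

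Incomplete reads were gathered in a few genes. Single 3′ models of Ndufs7, Ndufa4 and Ndufb3 held 61.0% and 69.4% of all incomplete-match reads of the 46 genes. The Ndufs7 model held the last 2 of 8 exons, with 543 reads (65.9%) in replicate 1 and 3410 reads (76.1%) in replicate 2, and it spanned 184 of the 672 coding bases. The Ndufa4 model held the last 2 of 4 exons, with 1258 (59.9%) and 6436 (68.2%) reads, and 115 of 246 coding bases. The Ndufb3 model held the last of 3 exons, with 335 (70.5%) and 2266 (79.8%) reads, and 154 of 312 coding bases. All 3 models begin at the annotated start of an exon. Models can carry annotated boundaries in place of the read ends, so where the molecules began inside or before these exons is not known. The stretches around these starts are shown because these 3 models held most reads of their genes. They are taken from the GENCODE M21 transcripts (mm10). The coding sequences lie at chr10:80249476-80256730 (plus strand) for Ndufs7, chr6:11900538-11907365 (minus strand) for Ndufa4 and chr1:58591092-58595802 (plus strand) for Ndufb3. Below, the coding bases left out of the incomplete model are in lower case and the first coding bases within it in capitals.
Ndufs7-201: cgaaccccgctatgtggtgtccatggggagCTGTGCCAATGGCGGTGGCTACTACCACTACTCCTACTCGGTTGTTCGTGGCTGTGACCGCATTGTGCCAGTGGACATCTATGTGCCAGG
Ndufa4-205: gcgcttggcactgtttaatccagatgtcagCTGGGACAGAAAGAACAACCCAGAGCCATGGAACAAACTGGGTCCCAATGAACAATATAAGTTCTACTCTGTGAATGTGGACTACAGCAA
Ndufb3-201: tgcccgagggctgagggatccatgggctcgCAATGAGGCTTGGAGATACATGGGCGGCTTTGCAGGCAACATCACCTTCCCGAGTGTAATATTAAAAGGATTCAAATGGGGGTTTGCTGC

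The same form was seen in 3 further genes. In Ndufaf7 a model of the last of 10 exons had 27 of 45 reads in replicate 1 and 246 of 290 in replicate 2. Its whole form had 15 and 27 reads, 18.8 and 16.9 CPM, so the higher level of this gene in replicate 2 lay in the incomplete model. In Ndufaf5 a model of the last 3 of 11 exons had 11 and 48 reads, beside 12 and 40 of the whole form. In Ndufa5 a model of the last exon had 108 and 581 reads, 18.1% and 23.9% of the gene. No other annotated gene overlapped any of these models.

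**Figure D4:**
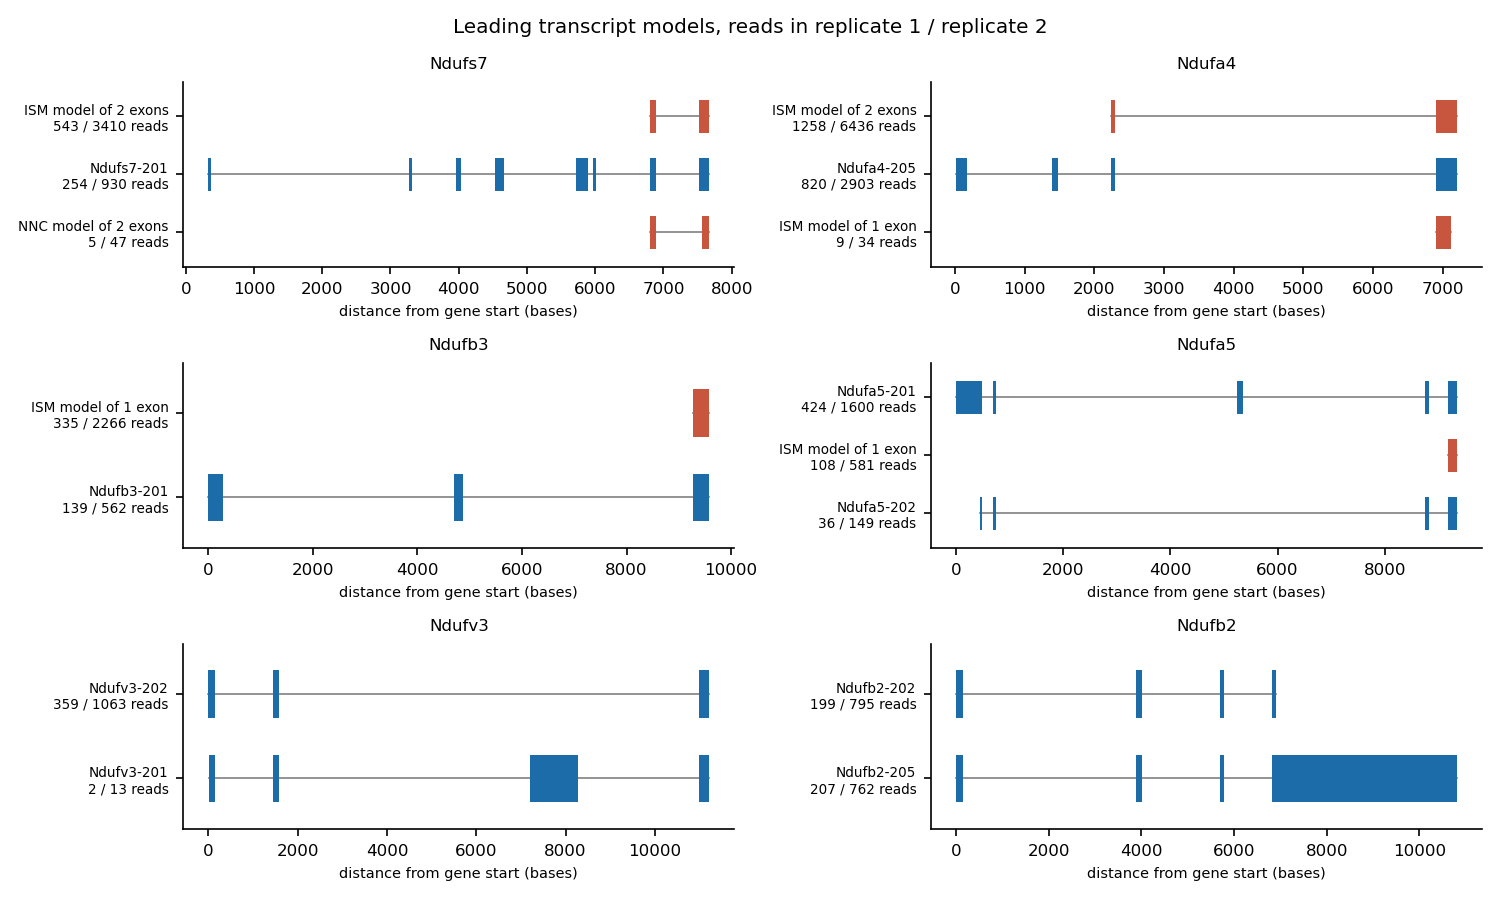
Exon maps of the leading models of genes with incomplete or alternative transcripts, drawn as distance in bases from the gene start in the direction of transcription. Boxes are exons of Known models (blue) or of other classes (red; ISM, incomplete splice match), with reads in replicate 1 and replicate 2 beside each. For Ndufs7, Ndufa4 and Ndufb3 the incomplete 3′ model holds most reads in both libraries.

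Ndufa13 differed from these genes. It had 0 reads in Known models, and its leading model, called an incomplete match, held 4 exons and the whole coding sequence of 432 bases, with 843 (97.3%) and 2655 (96.4%) reads. Its coding start, in the exon with coding bases chr8:69901542-69901635 (mm10, minus strand), is shown with the start codon in capitals, since the class name alone would count this gene as incomplete.
Ndufa13-201: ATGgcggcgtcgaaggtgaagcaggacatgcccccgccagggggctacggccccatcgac

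Counted on whole coding sequences only, a setting chosen after the data were seen, 11 of the 46 genes were higher in replicate 2 and 0 were lower, against 4.08% of the 5582 protein-coding genes tested that way. Ndufs4, Ndufab1, Ndufa8, Ndufa11, Ndufb3, Ndufb5, Ndufb8, Ndufb9, Ndufb10, Ndufaf1 and Ndufaf6 remained. Ndufs7 (1.82-fold), Ndufa4 (1.76-fold), Ndufa5, Ndufaf3 and Ndufaf7 did not pass. Ndufaf7 was the only gene of the 46 with a ratio under 1 (0.895). Of the structural subunits 34 of 36 then lay between 1.4 and 2.4, with Ndufb10 the highest at 2.35-fold.

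The order of levels changed at the top of the list. By whole coding sequences Ndufa13 was the highest of the 36 structural subunits with 1058 and 1657 CPM. Ndufs7 moved to rank 24 and Ndufb3 to rank 31. The lowest were Ndufa9 with 143 CPM in replicate 1 and Ndufs5 with 218 CPM in replicate 2. The highest exceeded the lowest by 7.39 and 7.59 times, against 6.87 and 11.7 times by all reads, and the SD of log2 CPM was 0.76 and 0.81.

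The share of the leading transcript within each gene was compared where both libraries had 20 reads or more, which left 41 genes. It differed by at least 10 percentage points in 4 of 41 (Fisher's exact test, Benjamini-Hochberg adjustment over 3204 genes), against 15.4% of all genes tested. Ndufs7 (65.9% and 76.1%) and Ndufaf7 (60% and 84.8%) are the incomplete models above. In Ndufa10, which binds in the matrix beside the membrane arm, the share of Ndufa10-201 was 83.6% and 72.5%, while a Genomic single-exon model had 20 and 172 reads. In Ndufs1 the share of Ndufs1-201 was 40.8% and 55.4%, and that of Ndufs1-203, which has the same coding sequence of 727 codons, was 35.4% and 24.0%. With incomplete and Genomic models left out, 0 of the 39 genes then tested were called, against 21 of 2518 genes (0.834%).

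The leading model itself differed between the libraries in 2 of 41 genes, against 434 of 3204. One was Ndufaf5, above. The other was Ndufb2, a small subunit of the distal arm, with Ndufb2-202 at 199 and 795 reads and Ndufb2-205 at 207 and 762 reads. Each thus held nearly equal shares (46.2% and 47.7%, 48.0% and 45.7%). They share a coding sequence of 315 bases and differ after it by a splice donor 4 bases further on in Ndufb2-202, and in their annotated 3′ ends. The last 20 bases of that exon, which lies at chr6:39598266-39598365 (mm10, plus strand) in the longer form, are shown with the extra bases in capitals.
Ndufb2-202: taaactctctggacgaGTAG
Ndufb2-205: actgtaaactctctggacga

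Among the assembly factors the leading models were thin. Ndufaf1-202 and Ndufaf1-203 had 8 and 30 and then 6 and 25 reads. The whole coding sequence counted in Ndufaf1 was that of Ndufaf1-201, of 330 codons. Ndufaf6-201 had 4 and 41 reads beside an 8-exon model with 4 and 25, which joins annotated splice sites in another combination. Ndufaf4-201 had 19 and 70 reads beside the non-coding Ndufaf4-202 with 5 and 14. Ndufaf8-201 held 50.8% and 65.2% of its gene, Ndufaf3-201 had 8 and 41 reads, and Ndufaf2-201 had 5 and 18.

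Most internal exons were nearly always included. Of 162 internal exons with at least 20 informative reads in each library, in 40 genes, 127 (78.4%) were included in over 99% of reads, against 16161 of 18578 (87.0%) over all genes. Internal exons of any model entered these counts. The others thus also hold exons almost never used, such as an exon of Ndufa1 included by 1 of 308 and 2 of 1115 reads. None of the 162 passed the test between the libraries (Fisher's exact test, Benjamini-Hochberg adjustment over 18578 exons, minimum of 10 percentage points; 1 had an unadjusted p under 0.05), against 0.0484% of all exons tested. With a mean inclusion between 10% and 90% there was 1 exon of 162, against 400 of 18578 over all genes. It is a non-coding exon of Ndufs1 upstream of the start codon, at chr1:63172154-63172257 on mm10 (minus strand), included by 23 of 201 informative reads in replicate 1 (11.4%, exact 95% CI 7.39 to 16.7) and by 59 of 498 in replicate 2 (11.8%, 9.14 to 15.02).

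A pair of coding exons were singled out after their values were seen. In Ndufa5 the exon at chr6:24522659-24522775 (mm10, minus strand) holds 117 bases, or 39 codons. Replicate 1 included it in 91.9% of reads (exact 95% CI 89.1 to 94.2) and replicate 2 in 91.7% (90.3 to 92.9). The form without it, Ndufa5-202, had 36 and 149 reads and codes for 77 codons against 116. The frame is kept, as the exon in capitals and the junction that replaces it show.
Ndufa5-201: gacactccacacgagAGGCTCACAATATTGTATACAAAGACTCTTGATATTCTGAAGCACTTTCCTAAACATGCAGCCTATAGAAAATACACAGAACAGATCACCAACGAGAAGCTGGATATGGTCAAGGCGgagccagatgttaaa
Ndufa5-202: gacactccacacgaggagccagatgttaaa

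In Ndufv3, a small subunit beside Ndufv1 that exists in a short and a long form, the exon at chr17:31527310-31528401 (mm10, plus strand) holds 1092 bases and makes the long form. Replicate 1 included it in 2 of 365 reads (0.548%, exact 95% CI 0.0664 to 1.97) and replicate 2 included it in 13 of 1080 (1.204%, 0.642 to 2.05). The short form Ndufv3-202, of 104 codons, had 359 and 1063 reads, and the long form Ndufv3-201, of 468 codons, had 2 and 13. The short form was thus almost the only one in both libraries. The first line shows the entry into the exon, the next its end (both with the exon in capitals) and the last the junction of the short form.
Ndufv3-201 entry: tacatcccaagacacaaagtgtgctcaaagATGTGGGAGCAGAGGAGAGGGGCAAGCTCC
Ndufv3-201 exit: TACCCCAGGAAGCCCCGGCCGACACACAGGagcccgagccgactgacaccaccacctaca
Ndufv3-202 junction: aaagtgtgctcaaagagcccgagccgactg

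Near-identical copies can take reads from a gene or lend reads to it. The annotation holds 13 processed pseudogenes that share at least 20% of their 25-base words with 11 of the 46 genes, and 6 of them had reads, 78 in replicate 1 and 276 in replicate 2. Nearly all belonged to BC002163, a copy of Ndufs5 at chr16:42955631-42955949 (mm10), with 76 and 267 reads, or 95.3 and 167 CPM. It matches the coding sequence of Ndufs5 at 316 of 318 bases and starts with ATG, with no stop codon before the end of its 106 codons. The level of Ndufs5 is therefore uncertain: alone it had 159 and 239 CPM, and with BC002163 255 and 406 CPM. Ndufb1-ps, annotated as a non-coding RNA and so outside the 46, had 419 and 1471 reads, 526 and 918 CPM, a level inside the range of the subunits. BC002163 and Ndufb1-ps were named after their values were seen.

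Promoter sequences of 300 bases, 250 before and 50 after each gene's start, matched 40 of the 46 genes in RefSeq (GRCm38.p6). They were searched on both strands for core words of factors known to act on respiratory genes. These were GCATGCGC for NRF1, CCGGAAG for the ETS family with NRF2, AAGATGGCG for YY1 and AAGGTCA for the oestrogen-related receptors, besides CCAAT and TATAAA. Overlapping matches occurred at 3 places among the 40 genes, since the NRF1 word on 1 strand overlaps itself on the other. NRF1 words were in 5 of 40 promoters (12.5%), against 3.05% of the 27025 genes with a promoter sequence. The ETS word was in 6 (15%, against 9.93%), and the YY1 word was in 6 (15%, against 1.64%).

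The receptor word was in 3 (7.5%, against 5.38%), CCAAT in 14 (35%, against 41.1%) and TATAAA in 4 (10%, against 15.7%). Any of the NRF1, ETS and YY1 words was in 16 of 40, or 40%, against 13.6%. The complex I promoters were also richer in G and C, with a median of 59.3% against 52.7%, and in CpG, with a median of 20.5 against 7 per promoter. A match describes the letters and does not show a site in use, and base composition moves with these shares, whose part was not tested.

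In 5 of the 6 genes with the YY1 word its ATG is the annotated start codon (Ndufa9, Ndufc1, Ndufs4, Ndufs6 and Ndufs7, not Ndufaf8). These 5 windows are shown because the word reaches into the coding sequence, followed by 3 with NRF1 words before the gene start. Words are in capitals, and each window is 30 bases.
Ndufa9 (chr6:126849096-126849125, minus strand): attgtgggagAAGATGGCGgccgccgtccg
Ndufc1 (chr3:51408914-51408943, minus strand): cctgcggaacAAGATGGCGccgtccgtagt
Ndufs4 (chr13:114388045-114388074, minus strand): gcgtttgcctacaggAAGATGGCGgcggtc
Ndufs6 (chr13:73328433-73328462, minus strand): aagggtcaccggcAAGATGGCGgcggtgct
Ndufs7 (chr10:80249463-80249492, plus strand): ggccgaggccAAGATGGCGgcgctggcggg
Ndufa11 (chr17:56717692-56717721, plus strand): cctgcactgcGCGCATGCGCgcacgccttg
Ndufa6 (chr15:82354356-82354385, minus strand): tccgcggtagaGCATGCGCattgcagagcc
Ndufa8 (chr2:36049328-36049357, minus strand): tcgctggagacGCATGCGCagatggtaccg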

How the data were processed

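Raw counts of reads in each transcript model were deposited by the authors for both libraries, with an annotation, made against mm10 with GENCODE M21 per the file headers and README. TALON model names appear in the deposited annotation; for the aligner and its filters, nothing is given in the sources used here. Counts were summed per gene and scaled to reads in annotated genes, without spike-ins. A count of 0 allows up to 3.76 CPM and 1.87 CPM (3 counts). Genes, leading transcripts and internal exons were compared by two-sided Fisher's exact tests with Benjamini-Hochberg adjustment over all features, at 0.05 with a minimum of 2-fold or 10 percentage points. The procedures were tested on simulated counts, with planted changes larger than these minimums and no spread between libraries beyond counting error. Such a test cannot show how reliable the calls are between these libraries. Intervals are exact (95%) and cover counting error only, since reads carry no molecular identifiers. edgeR 4.0.16 and DESeq2 1.42.0 (R 4.3.3) gave other scalings only. Python 3.11.15, scipy 1.17.1 and pandas 2.3.3 were used.

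The genes, gene lists and tests were chosen with earlier results of these data known. Genes named were those past a test, the 7 core subunits, the 5 highest and 5 lowest structural subunits, all Ndufaf genes, Ndufa4 and Ndufa4l2. Also named were genes whose leading model differed, was not Known or held under 60% in both libraries, those with an exon at 10% to 90% inclusion, and the 3 highest and the called genes of the other complex I list. The level of 1 gene is not reported here by name, although the counts include it.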

Additional observations from a re-analysis of the deposited data

How the results depend on the processing

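The count of 16 complex I genes higher in replicate 2 (5.78% of all genes tested) was 18 with edgeR's TMM factors (6.37% of all genes), 16 with DESeq2's size factors (5.88%), 15 with no filter on low counts (2.68%), 16 with at least 50 reads (10.3%), 24 without incomplete and Genomic models (6.9%) and 11 on whole coding sequences (4.08%). It was 7 with Atp2a1 left out of the totals (4.3% of all genes), 10 with known models only (4.45%), and 40 with a 1.5-fold threshold (10.2%). The change with the Atp2a1 total follows from the lower ratios that this total gives. For known models the cause was not tested. No complex I gene was lower under any of these settings. The SD of log2 CPM over the structural subunits, 0.80 as the mean of both libraries, was 1.05 without incomplete and Genomic models, where Ndufa13 fell to 24.4 CPM, and 1.13 per kb of the leading annotated transcript. Over the libraries taken alone it was 0.75 to 0.86. The share of all reads was 2.00% to 3.94% over the libraries taken alone and 2.77% to 3.36% under the other settings, and the Known share was 70.3% to 75.9%. The count of 4 leading transcripts that differed (15.4% of all genes tested) was 0 without incomplete and Genomic models (0.834%). It was 0 on whole coding sequences (0.503%) and 7 with a minimum of 5 percentage points (16.6%). The count of 0 exons was 0 under each setting tried. Mean levels of 7 to 9 of the 46 genes moved by more than the spread between libraries with known models only, without incomplete models or on whole coding sequences, among them Ndufs7, Ndufb3, Ndufa4, Ndufaf5 and Ndufaf7. The whole coding sequence setting was added after the data were seen. No paired analysis was possible because the libraries form 1 group. Depth limits the assembly factors, with 5 to 59 reads in replicate 1, and Ndufa4l2, with 4.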
